A study of Homo sapiens with 9 samples.

Results

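The genes of oxidative phosphorylation encoded in the nucleus were followed across 3 doses of 5-aza-deoxycytidine (5-Aza), a nucleoside that inhibits the enzymes methylating DNA, in the human colon cancer line HT-29. Genes were taken by their current symbols, as those of the NDUFA, NDUFB, NDUFC, NDUFS and NDUFV families, the UQCR, ATP5F, ATP5M and ATP5P families, the COX4I to COX8 subunits, SDHA to SDHD and CYC1, without pseudogenes. The rule found 88 of the 19775 genes named on the array, on 169 probe sets. Of these, 77 encode subunits of the complexes, 8 are NDUFAF genes for complex I assembly factors whose symbols meet the rule, and 3 are noncoding RNAs named after a neighbouring subunit gene (NDUFB2-AS1, NDUFV1-DT and NDUFV2-AS1). NDUFS8, NDUFC2, SDHB, UQCRFS1 and UQCRH were not analysed here.

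The cultures received DMSO vehicle (0 µM), 5 µM 5-Aza or 10 µM 5-Aza for 5 days, as 3 separate cultures per dose, and each culture was read on its own Affymetrix U133 Plus 2.0 array from total RNA. All 9 cultures are of 1 cell line, so the spread between arrays is the spread between cultures of that line. Values are log2 signals. For each gene the brightest probe set on average was used. It was compared only with itself across doses and with the array's median over probe sets, here called the floor, which lay between 5.07 and 5.52. Of the 88 genes, 80 were above the floor on all 9 arrays and 84 were tested, and COX6A2, COX7B2, COX8C and ATP5MF did not reach the floor on all 3 arrays of any dose. Of 12 markers of colon epithelium 10 were tested, while CDX1 and CDX2, transcription factors of the intestine, stayed below the floor on all 9 arrays. The summed linear signal of the 12 was 9.68e+04 to 1.01e+05 at 0 µM, 6.79e+04 to 7.63e+04 at 5 µM and 6.21e+04 to 7.06e+04 at 10 µM.

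Oxidative phosphorylation joins electron transport to ATP synthesis at the inner mitochondrial membrane. Complex I (NADH dehydrogenase) and complex II (succinate dehydrogenase) pass electrons to ubiquinone, complex III hands them to cytochrome c, and complex IV (cytochrome c oxidase) reduces oxygen. Complexes I, III and IV move protons across the membrane, and complex V, the ATP synthase, uses their return to make ATP. A few core subunits are encoded by mitochondrial DNA and the rest by nuclear genes, and several complex IV subunits exist as a common form and as a form largely restricted to muscle, lung or testis.

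Most of these genes had lower signals at 10 µM 5-Aza than at 0 µM, by amounts that stayed within 2-fold. Tested with limma on all 9 arrays and adjusted over 11756 genes, 29 of the 84 were lower and 3 higher at 10 µM against 0 µM (adjusted p of at most 0.05, any size). The background was 13.3% of all tested genes lower and 19.8% higher, and the 29 made up 34.5% of the 84. This background is not matched for signal. The 84 were brighter than all tested genes (medians of the mean log2 signal 10.92 and 8.67), with a median standard error of 0.13 against 0.15. At 5 µM against 0 µM, 10 were lower and 7 higher, against a background of 13.3% lower and 20.2% higher. Between the treated doses, 11 were lower and 1 higher at 10 µM against 5 µM, where the background was 8.92% lower and 6.93% higher. Any pair of these comparisons shares the 3 arrays of a dose. Under the study's rule of adjusted p of at most 0.05 with more than 2-fold, COX6B2 and COX7A1 were higher at 5 µM against 0 µM (background 8.59%), COX6B2 was higher at 10 µM against 0 µM (6.08%) and COX7A1 was lower at 10 µM against 5 µM (2.08%). No member passed this rule as lower against 0 µM at either dose (background 1.32% at 5 µM and 1.5% at 10 µM). There too none passed it with limma's unadjusted p under 0.05 or with the methods' t-test, a count of 0 each time.

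The median log2 fold change of the 84 genes was -0.30 at 10 µM against 0 µM, -0.14 at 5 µM against 0 µM and -0.17 at 10 µM against 5 µM, beside medians of 0.05, 0.04 and -0.01 over all tested genes. A change below 0 was seen in 70, 60 and 63 of the 84 genes in these comparisons, where the shares over all tested genes were 46%, 45.8% and 51%. The array values of 38 genes were lower at 10 µM than at 0 µM without overlap (background 19%), and those of 7 were higher without overlap (25.5%). For 5 µM and 0 µM these counts were 37 lower (25.4%) and 12 higher (31%). When all arrays were given the same median, the median over all tested genes moved to -0.23 and -0.22 at 10 and 5 µM against 0 µM. This step moves every gene of an array by the same amount. Relative to all tested genes the 84 genes therefore had to stay at -0.35 and -0.19, as in the deposited scale. With quantile normalization, where this is not fixed, they were at -0.22 and -0.02.

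**Figure D1:**
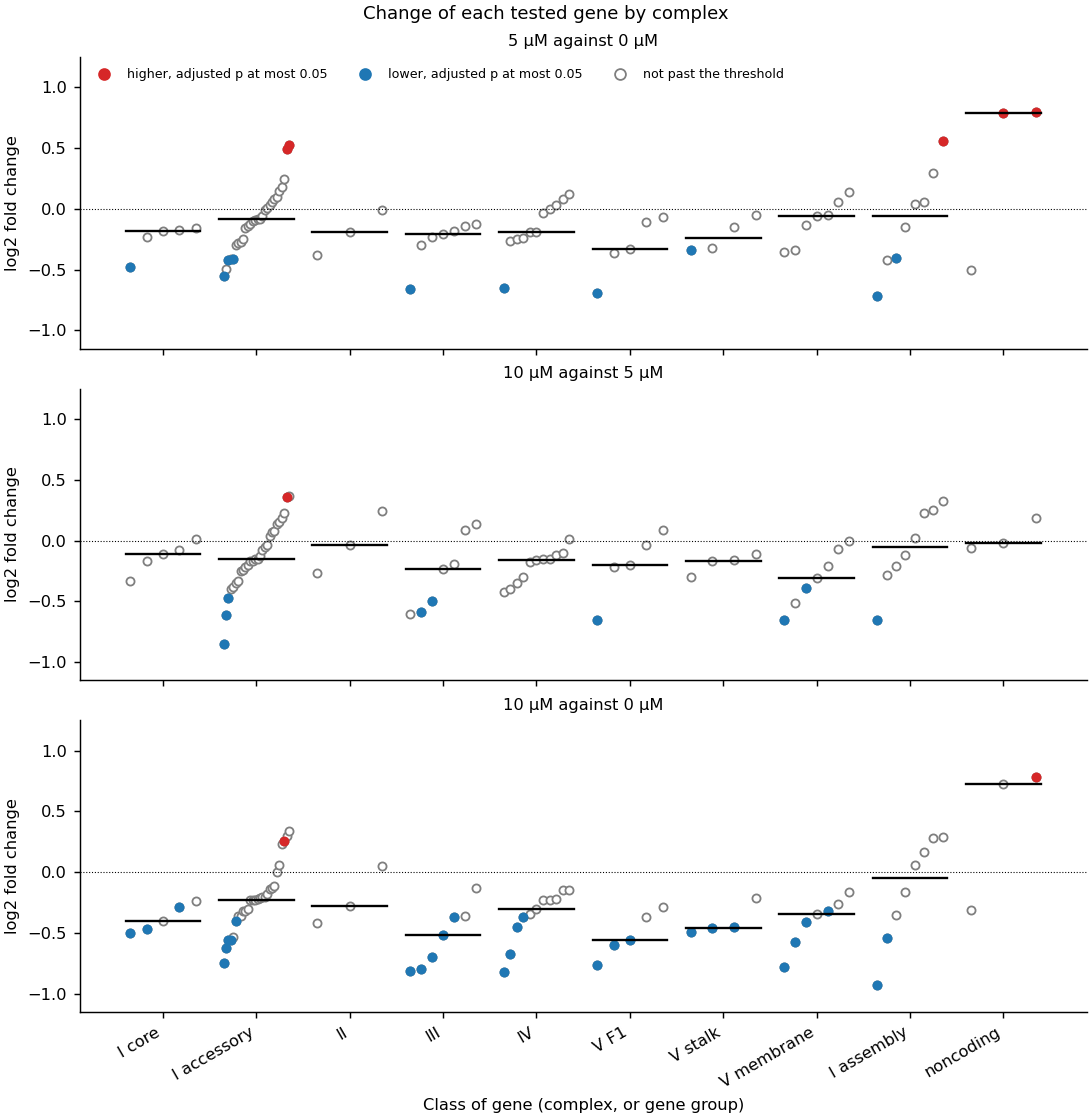
Log2 fold change of each tested gene (points) in each comparison, by complex or gene group, with the class median as a bar. Red and blue points passed an adjusted p of at most 0.05 as higher and lower, grey open points did not, and COX4I2, COX6B2 and COX7A1 are left out. At 10 µM against 0 µM the medians of complex III and of the F1 part of complex V lie at -0.52 and -0.56.

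The 70 common subunits, that is the tested subunits other than tissue forms, were all above the floor on all 9 arrays, so none entered through 1 dose alone. Of these, 27 were lower and 1 higher at 10 µM against 0 µM, with a median of -0.32. Their median deviation from each gene's mean was 0.17, 0.21 and 0.10 on the 0 µM arrays, -0.06, 0.06 and 0.04 on the 5 µM arrays, and -0.32, 0.06 and -0.22 on the 10 µM arrays. The second 10 µM array thus lay with the 5 µM arrays, and the first and the third lay below all others. Without 10 µM replicate 2, 54 of 85 members were lower at 10 µM against 0 µM (51 of the 70 common subunits) with a median of -0.39, and without 10 µM replicate 1 or 3 the counts were 19 and 15. Leaving out 0 µM replicate 1 or 2 gave 15 and 11. No share over all tested genes is given for these fits with an array left out, so their counts have no background. Without 10 µM replicate 2 the median over all tested genes was 0.07. A measure of RNA length, the actin control's log2 signal at the 3' end less that at the 5' end, also moved with dose. It averaged 2.09 ± 0.19 at 0 µM, 2.59 ± 0.10 at 5 µM and 2.98 ± 0.17 at 10 µM (SD, n = 3 each), with no overlap between doses. With this measure as a covariate the median of the members was -0.26 at 10 µM against 0 µM. In that fit limma called 0 of them lower (1 at an unadjusted p under 0.05) and 0 of all 11756 genes, and the median standard error of a member was 0.43, against 0.13 without the covariate.

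**Figure D2:**
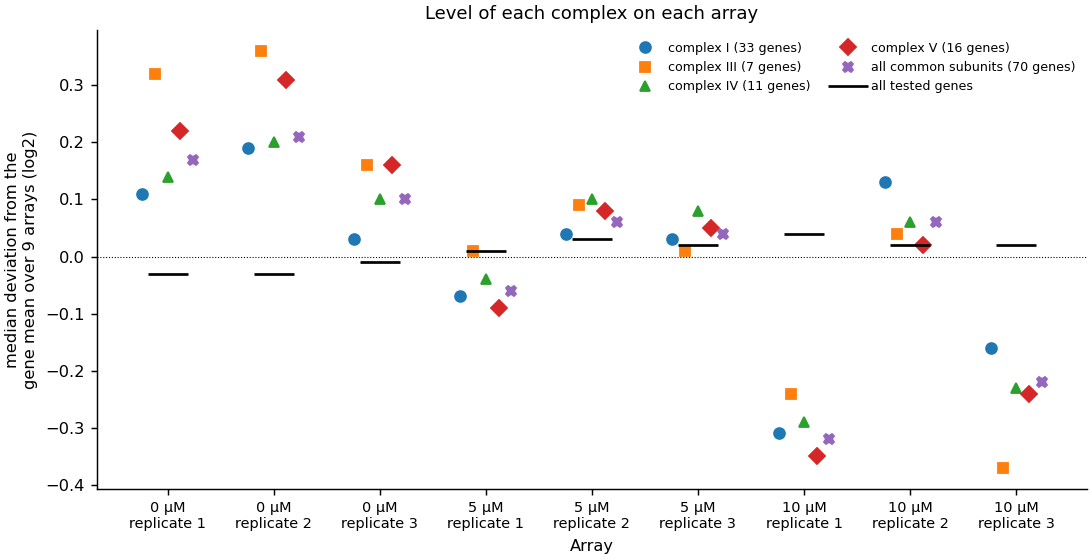
Median deviation (log2) of the subunits of each complex from each gene's mean over 9 arrays, for each array, tissue forms left out. Black dashes give the median deviation of all tested genes. Replicates 1 and 3 at 10 µM lie below 0 for all complexes shown, and replicate 2 at 10 µM lies between 0.02 and 0.13.

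The calls of more than 2-fold belonged to tissue forms of complex IV. Of these calls, only the rise of COX6B2 at 5 µM stayed above 2-fold once low signals were raised to the floor. COX7A1 is the form of subunit 7A found in heart and skeletal muscle. It read 2.35, 1.38 and 0.48 at 0 µM, 6.08, 6.18 and 6.10 at 5 µM, and 1.96, 1.32 and 2.23 at 10 µM. Only the 5 µM arrays were above the floor, where the signal was at least 1.97-fold higher than at 0 µM (limma adjusted p = 8.87e-05), and at 10 µM it was at least 1.62-fold lower than at 5 µM (adjusted p = 0.00145). For such bounds every value below the floor of its array was raised to that floor. COX6B2 is the testis form of subunit 6B. Its signals were 4.20, 2.74 and 1.93 at 0 µM, 6.75, 6.57 and 6.43 at 5 µM, and 5.70, 5.49 and 5.35 at 10 µM. It was at least 2.71-fold higher at 5 µM than at 0 µM (adjusted p = 0.000654). At 10 µM, 2 of the 3 arrays were above the floor, and the difference from 0 µM passed the test (adjusted p = 0.00456), though with low signals raised to the floor it was 0.42 on the log2 scale. Both genes passed the filter on low signals only through treated arrays, so they had to differ.

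COX8C, the testis form of subunit 8, was also highest at 5 µM, but below the floor. It read -0.15, 1.54 and -1.74 at 0 µM, 4.95, 5.07 and 5.05 at 5 µM, and 0.85, 0.68 and 0.14 at 10 µM. The 5 µM arrays lay above both other groups without overlap, but all 9 values were below the floor and no fold or test is given. COX7B2, the testis form of subunit 7B, was below the floor on all 9 arrays (-0.32 to 4.54). COX6A2, the heart and muscle form of subunit 6A, was above it on 3 arrays (3.88 to 5.78), and its doses overlapped. COX4I2, the lung form of subunit 4, read 5.46, 5.76 and 5.89 at 0 µM, 6.13, 6.28 and 5.99 at 5 µM, and 5.33, 5.18 and 5.59 at 10 µM. It fell at 10 µM against 5 µM by 0.77 ± 0.15 on the log2 scale (SE, adjusted p = 0.0146), a call lost without 5 µM replicate 2 (adjusted p = 0.0576). Only 1 of its 3 arrays at 10 µM was above the floor, so the size of this fall is uncertain. The difference of 0.43 at 5 µM against 0 µM did not pass (adjusted p = 0.0564) and was 0.16 with quantile normalization.

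**Figure D3:**
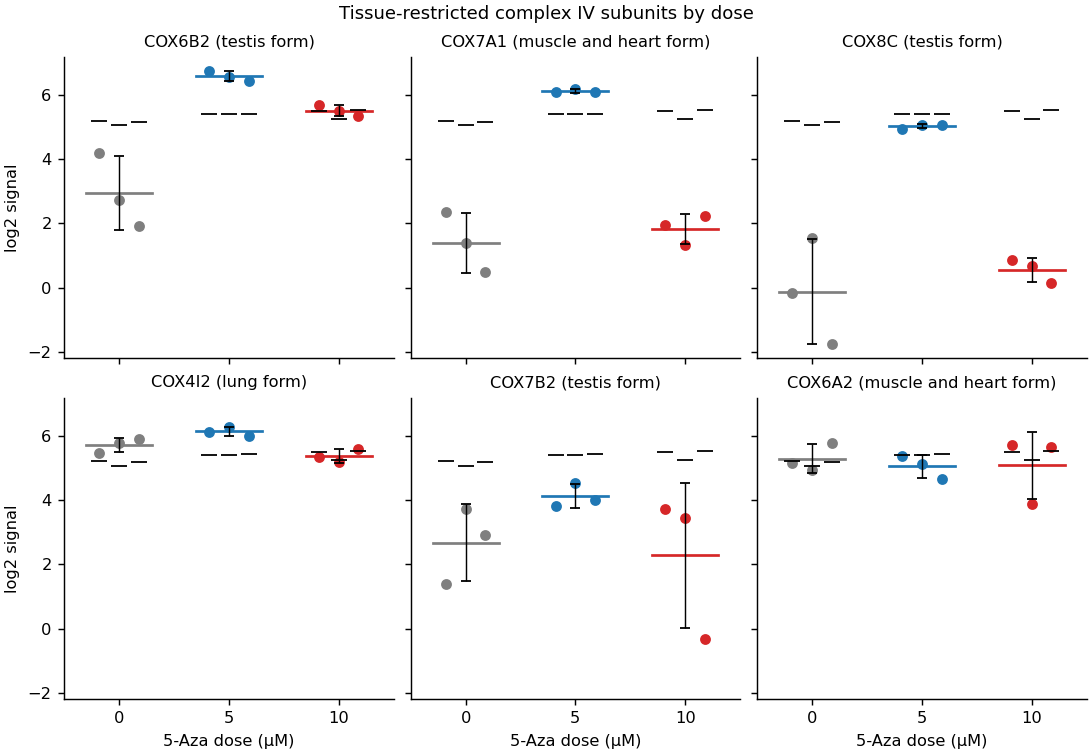
Log2 signal of 6 tissue forms of complex IV subunits on each array (points) by 5-Aza dose, with group means (coloured bars) and SD (n = 3). Short black dashes mark the floor of each array. COX6B2 and COX7A1 lie above the floor on all 3 arrays only at 5 µM, and all COX8C values lie below it.

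The germ cell markers DAZL, MAEL and SYCP3 were above the floor at 5 µM and below it on all 0 µM arrays. They were tested only because of their treated arrays, so they too had to differ, and the other 3 of the list of 6 (DDX4, PRM1 and TNP1) stayed below the floor on all arrays. Summed over the 6 markers, the linear signal was 52 to 73.5 at 0 µM, 1430 to 1610 at 5 µM and 160 to 176 at 10 µM. Of 5 striated muscle markers, CKM and MYH7 were below the floor on all arrays, and MB, the only one tested, rose at 5 µM by 1.15 ± 0.20 on the log2 scale (SE, adjusted p = 0.00307). The summed linear signal of the 5 was 76.8 to 165 at 0 µM, 176 to 211 at 5 µM and 137 to 201 at 10 µM. Among markers of fibroblasts, endothelium and leukocytes, 1, 2 and 2 were tested, and of each list 1 rose at 5 µM (background 20.2%). The leukocyte marker that rose, ITGAM, was below the floor on all 0 µM arrays. It passed the filter only through its 5 µM arrays, so it had to differ. TEK, the endothelial marker that rose, passed the filter only through treated arrays. All cultures were of HT-29, so these markers were read as genes of that line and not as a share of other cell types. In these bulk samples, a change in the number of expressing cells and in RNA per cell cannot be told apart.

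The stretches before the start sites of the 4 tissue forms with a promoter in the table are shown, since CpG sites are where human DNA is methylated. Each is the 250 bases before the RefSeq start (GRCh38.p14), 5′ to 3′ in the direction of the gene, with every CpG in capitals. COX6B2 lies at chr19:55354720-55354969 on the minus strand, COX8C at chr14:93346932-93347181 on the plus strand, COX7B2 at chr4:46909246-46909495 on the minus strand and COX6A2 at chr16:31428361-31428610 on the minus strand.
COX6B2: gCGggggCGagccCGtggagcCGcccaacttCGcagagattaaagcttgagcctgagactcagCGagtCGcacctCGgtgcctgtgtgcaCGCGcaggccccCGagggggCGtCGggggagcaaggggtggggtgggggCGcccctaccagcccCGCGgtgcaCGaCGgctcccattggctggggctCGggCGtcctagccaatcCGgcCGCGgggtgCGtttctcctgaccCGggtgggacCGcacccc
COX8C: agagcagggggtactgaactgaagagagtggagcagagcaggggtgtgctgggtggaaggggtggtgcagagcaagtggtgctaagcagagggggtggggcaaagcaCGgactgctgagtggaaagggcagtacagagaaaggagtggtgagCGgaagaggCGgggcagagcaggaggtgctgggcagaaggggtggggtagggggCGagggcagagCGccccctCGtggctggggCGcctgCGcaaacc
COX7B2: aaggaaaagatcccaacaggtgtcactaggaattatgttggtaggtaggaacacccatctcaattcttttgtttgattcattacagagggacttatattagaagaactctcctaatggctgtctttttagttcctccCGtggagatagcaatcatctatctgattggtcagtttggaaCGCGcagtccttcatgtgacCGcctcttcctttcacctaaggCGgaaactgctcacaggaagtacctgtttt
COX6A2: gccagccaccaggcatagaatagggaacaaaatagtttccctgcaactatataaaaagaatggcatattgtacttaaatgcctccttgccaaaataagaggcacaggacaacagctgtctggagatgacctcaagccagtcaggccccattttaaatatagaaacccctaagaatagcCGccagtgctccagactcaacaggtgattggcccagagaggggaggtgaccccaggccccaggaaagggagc
COX6B2 held 26 CpG in this window, COX8C held 8, COX7B2 held 5 and COX6A2 held 1. No promoter was available for COX7A1 or COX4I2. COX8C was also highest at 5 µM without overlap, though below the floor. Whether CpG number goes with the change in signal was not tested. Over the first starts of 27305 genes the median was 11 CpG. For the 61 common subunits with a promoter in the table the median was 19 CpG (0 to 35). These windows were searched on both strands for motifs of 3 factors known to act on such genes. The NRF1 motif, GCGC and TGCGC with any base between them, was found in 21.3% of the 61 windows (5.53% of all windows of this length). The ETS motif CCGGAAG was found in 24.6% (8.82%) and the YY1 motif GCCATNTT in 4.92% (3.91%). A match describes the letters only, and methylation was not analysed here.

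The common forms of these complex IV subunits were all far above the floor. COX4I1, COX6A1, COX6B1, COX7A2 and COX7B passed the test in none of the comparisons, with differences between -0.35 and 0.12. With equal array medians COX4I1 and COX6A1 were lower at 5 µM against 0 µM, and both with COX7A2 and COX7B at 10 µM. COX8A, the common form of subunit 8, read 12.36, 12.35 and 12.18 at 0 µM, 12.22, 12.26 and 12.31 at 5 µM, and 11.58, 12.15 and 11.81 at 10 µM, and fell at 10 µM against 0 µM by 0.45 ± 0.14 (SE, adjusted p = 0.0415). That call held without 10 µM replicate 2 and was lost without any other single array (adjusted p up to 0.119). COXFA4, long known as NDUFA4 and now placed in complex IV, did not meet the rule by its current symbol and averaged 12.13 ± 0.16 at 0 µM, 12.17 ± 0.07 at 5 µM and 11.86 ± 0.23 at 10 µM (SD, n = 3 each). COXFA4L2, its paralogue known for induction in hypoxia, was above the floor on 2 of 9 arrays.

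Among the 11 common complex IV subunits, 4 (COX7A2L, COX7C, COX8A and COX5A) fell at 10 µM against 0 µM (background 13.3%), with a class median of -0.30. The fall of COX5A, by 0.37, was kept only without 10 µM replicate 2 (adjusted p up to 0.132 without another array). With quantile normalization the median was -0.07 and 2 passed. COX7A2L, which links complexes III and IV in supercomplexes, read 12.01, 12.03 and 11.80 at 0 µM, 11.23, 11.35 and 11.31 at 5 µM, and 10.78, 11.52 and 11.10 at 10 µM. All treated arrays lay below all 0 µM arrays. The gene fell by 0.82 ± 0.17 on the log2 scale at 10 µM (SE, adjusted p = 0.0086) and by 0.65 ± 0.17 at 5 µM (adjusted p = 0.0193). The first call held with any 1 array left out, and the second was lost without 0 µM replicate 1 or 2 or 5 µM replicate 1 or 3 (adjusted p up to 0.0673). COX7C, a small membrane subunit, read 13.18, 13.36 and 13.20 at 0 µM, 12.90, 13.02 and 13.02 at 5 µM, and 12.56, 12.91 and 12.26 at 10 µM. It fell at 10 µM against 0 µM by 0.67 ± 0.16 (SE, adjusted p = 0.0127), also without any 1 array.

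Complex III showed one of the larger shifts, with 5 of 7 tested subunits lower at 10 µM against 0 µM (background 13.3%) and a median of -0.52. The median was -0.43 with quantile normalization and -0.79 with equal array medians. UQCRB, which takes part in ubiquinone binding, read 12.31, 12.34 and 12.17 at 0 µM, 11.92, 12.09 and 11.92 at 5 µM, and 11.35, 11.71 and 11.36 at 10 µM. The 3 doses did not overlap and stood in order of dose. UQCRB fell by 0.80 ± 0.12 at 10 µM against 0 µM (SE, adjusted p = 0.00224) and by 0.50 ± 0.12 at 10 µM against 5 µM (adjusted p = 0.0288). UQCR10, a small subunit beside cytochrome c1, read 12.85, 12.88 and 12.67 at 0 µM, 12.57, 12.86 and 12.63 at 5 µM, and 11.99, 12.32 and 11.98 at 10 µM. Its 5 µM values overlapped the 0 µM values, and it fell at 10 µM by 0.70 ± 0.13 against 0 µM (SE, adjusted p = 0.00482) and by 0.59 ± 0.13 against 5 µM (adjusted p = 0.0203). Both genes kept the call against 0 µM without any 1 array. Against 5 µM, UQCRB lost it without any single 5 µM array or 10 µM replicate 1 or 3 (adjusted p up to 0.102), and UQCR10 without 5 µM replicate 2 or 3 or 10 µM replicate 3 (adjusted p up to 0.0771). With equal array medians neither passed against 5 µM (adjusted p = 0.0962 for UQCRB and 0.0648 for UQCR10), and another UQCRB probe set differed by 0.14 there and by -0.43 against 0 µM.

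CYC1, the haem subunit cytochrome c1, had its drop at the lower dose. It read 11.31, 11.50 and 11.19 at 0 µM, 10.52, 10.71 and 10.79 at 5 µM, and 10.73, 10.99 and 10.73 at 10 µM. The fall was 0.66 ± 0.13 at 5 µM (SE, adjusted p = 0.00517), which held without any 1 array, and 0.52 ± 0.13 at 10 µM (adjusted p = 0.0162), which was lost without 0 µM replicate 2 or 10 µM replicate 3 (adjusted p up to 0.0634). UQCRC1, a core protein of the matrix side, read 9.92, 10.02 and 9.86 at 0 µM, 9.62, 9.82 and 9.74 at 5 µM, and 9.55, 9.16 and 8.67 at 10 µM. It fell at 10 µM against 0 µM by 0.81 ± 0.20 (SE, adjusted p = 0.0145), with a wide spread at 10 µM, and the call was lost without 0 µM replicate 2 (adjusted p = 0.051). With the actin measure as a covariate its difference was 0.11. UQCR11 also fell, by 0.37, a call kept only without 10 µM replicate 2 (adjusted p up to 0.115 without another array), while UQCRC2 (-0.13) and UQCRQ (-0.36) did not pass.

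**Figure D4:**
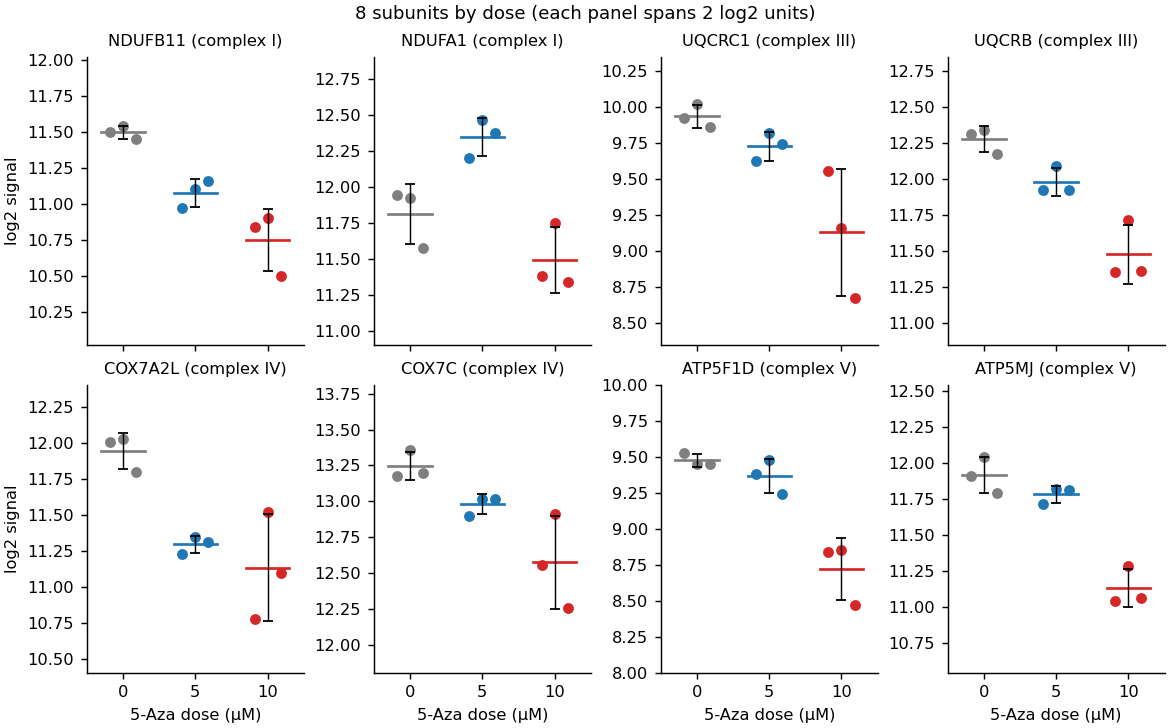
Log2 signal of 8 subunits on each array (points) by 5-Aza dose, with group means (bars) and SD (n = 3). Each panel spans 2 log2 units, and NDUFA1 is the one of the 8 whose highest mean (12.34) is at 5 µM.

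In complex V, 10 of 16 tested subunits fell at 10 µM against 0 µM (background 13.3%). At 5 µM against 0 µM, 2 fell (13.3%), and at 10 µM against 5 µM, 3 fell (8.92%), and none rose. The methods' t-test called 1 higher at 5 µM, and with limma none had an unadjusted p under 0.05 as higher. The medians were -0.43, -0.14 and -0.20, and with quantile normalization the first was -0.24 with 5 genes lower. Without 10 µM replicate 2 all 16 were lower at 10 µM against 0 µM, a count without a background share. In the F1 part, which holds the catalytic sites and the central stalk, 3 of 5 fell, with a median of -0.56. In the peripheral stalk, which holds F1 in place, 3 of 4 fell (median -0.45), and among the membrane subunits 4 of 7 (median -0.34).

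ATP5F1D, the delta subunit of the central stalk, read 9.53, 9.45 and 9.45 at 0 µM, 9.38, 9.48 and 9.24 at 5 µM, and 8.84, 8.85 and 8.47 at 10 µM. Its 5 µM values overlapped the 0 µM values, and at 10 µM it fell, by 0.76 ± 0.12 against 0 µM (SE, adjusted p = 0.00287) and by 0.65 ± 0.12 against 5 µM (adjusted p = 0.0127, lost without 5 µM replicate 2 at 0.0536). Its second probe set, ending in _x_at, differed by only -0.16 and -0.19. ATP5MJ, a small membrane subunit, also had its lowest values at 10 µM. It read 11.91, 12.04 and 11.79 at 0 µM, 11.71, 11.82 and 11.81 at 5 µM, and 11.04, 11.28 and 11.06 at 10 µM. ATP5MJ fell by 0.78 ± 0.11 against 0 µM (SE, adjusted p = 0.00132) and by 0.65 ± 0.11 against 5 µM (adjusted p = 0.00777), and both calls held without any 1 array. Its second probe set differed by -0.98 and -0.62.

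ATP5F1C, the gamma subunit that turns inside F1, was lower at both doses. It read 12.49, 12.65 and 12.50 at 0 µM, 11.79, 11.95 and 11.83 at 5 µM, and 11.68, 12.19 and 11.97 at 10 µM. It fell by 0.69 ± 0.13 at 5 µM (SE, adjusted p = 0.0051) and by 0.60 ± 0.13 at 10 µM (adjusted p = 0.0111), both without any 1 array. Of its 3 other probe sets, the 2 that end in _x_at were lower too (-0.51 and -0.43 at 5 µM), and the one that does not was level (0.10). ATP5F1B, the catalytic beta subunit, fell at 10 µM by 0.56 ± 0.14 (SE, adjusted p = 0.0162), a call lost without 0 µM replicate 1 or 2 (adjusted p up to 0.0551). ATP5PB, subunit b of the peripheral stalk, fell by 0.46 ± 0.12 at 10 µM (SE, adjusted p = 0.0176, lost without 0 µM replicate 2 at 0.0702) and by 0.34 ± 0.12 at 5 µM (adjusted p = 0.0487). The fall at 5 µM was lost without any single 0 or 5 µM array or 10 µM replicate 3 (adjusted p up to 0.163). The other falls in this complex at 10 µM were 0.57 (ATP5MG), 0.49 (ATP5PO), 0.45 (ATP5PF), 0.41 (ATP5ME) and 0.32 (ATP5MK). The calls of ATP5PF and ATP5PO were lost without 0 µM replicate 1 or 2 or 10 µM replicate 3, and that of ATP5PF also without 10 µM replicate 1 (adjusted p up to 0.0967). ATP5MG lost it without any single 0 µM array or 10 µM replicate 1 or 3 (adjusted p up to 0.103). ATP5ME and ATP5MK kept it only when 10 µM replicate 2 was the array left out (adjusted p up to 0.138 otherwise). ATP5MK also fell by 0.39 at 10 µM against 5 µM, with the same dependence. ATP5F1A (-0.37) and ATP5F1E (-0.29), the alpha and epsilon subunits, did not pass. ATP5MF was not tested, with signals between 2.70 and 6.32 that varied within each dose.

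Complex I was mixed. Of its 33 tested subunits, 8 fell and 1 rose at 10 µM against 0 µM (median -0.23), 4 fell and 2 rose at 5 µM against 0 µM, and 3 fell and 1 rose at 10 µM against 5 µM. Over all tested genes, the shares lower and higher were 13.3% and 19.8%, 13.3% and 20.2%, and 8.92% and 6.93% in the same order. The falls at 5 µM and between the treated doses were near these shares. Of the 5 core subunits, which carry the flavin, the iron-sulphur clusters and the quinone site, NDUFV2, NDUFS7 and NDUFS3 fell at 10 µM, with a median of -0.40, while NDUFV1 (-0.40) and NDUFS1 (-0.24) did not pass. NDUFV2 read 11.46, 11.49 and 11.30 at 0 µM, 10.81, 11.07 and 10.92 at 5 µM, and 10.77, 11.09 and 10.98 at 10 µM. It fell by 0.48 ± 0.12 at 5 µM (SE, adjusted p = 0.015) and by 0.47 ± 0.12 at 10 µM (adjusted p = 0.0175), and both calls were lost without 0 µM replicate 1 or 2 (adjusted p up to 0.0611 and 0.0657), the first also without 5 µM replicate 1. NDUFS7 fell by 0.50, a call lost without 0 µM replicate 2 or 10 µM replicate 3 (adjusted p up to 0.0589). NDUFS3 fell by 0.29, a call kept only without 10 µM replicate 2 (adjusted p up to 0.116 without another array).

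Among the 28 accessory subunits, NDUFB11, an X-linked subunit of the membrane arm, was lower at both doses. It read 11.50, 11.54 and 11.45 at 0 µM, 10.97, 11.10 and 11.16 at 5 µM, and 10.84, 10.90 and 10.50 at 10 µM. No dose overlapped another, and it fell by 0.75 ± 0.12 at 10 µM (SE, adjusted p = 0.00279) and by 0.42 ± 0.12 at 5 µM (adjusted p = 0.028). The call at 5 µM was lost without any single 0 or 5 µM array (adjusted p up to 0.099). NDUFB10, of the intermembrane side, fell by 0.56 ± 0.13 at 10 µM (SE, adjusted p = 0.0141) and by 0.41 ± 0.13 at 5 µM (adjusted p = 0.0456), the call at 5 µM being lost without any single 0 µM array, 5 µM replicate 1 or 3, or 10 µM replicate 1 (adjusted p up to 0.151). NDUFA10, of the membrane arm, overlapped between 5 µM and 0 µM and was lower at 10 µM. It read 10.33, 10.27 and 10.46 at 0 µM, 10.36, 10.25 and 10.41 at 5 µM, and 9.95, 9.59 and 9.66 at 10 µM, a fall of 0.62 ± 0.12 against 0 µM (SE, adjusted p = 0.00535) and of 0.61 ± 0.12 against 5 µM (adjusted p = 0.0133, lost without 5 µM replicate 3 or 10 µM replicate 3 at up to 0.0613). NDUFS4, which sits by the NADH-oxidising module, fell at 5 µM by 0.55 ± 0.16 (SE, adjusted p = 0.0274), a call lost without 0 µM replicate 1 or 2 or 5 µM replicate 1 or 3 (adjusted p up to 0.0989). NDUFB1 fell at 10 µM against 5 µM by 0.47 ± 0.13 (SE, adjusted p = 0.0393), a call kept only without 10 µM replicate 2 (adjusted p up to 0.131 without another array), and its other probe set differed by 0.08. NDUFB4 and NDUFAB1, the mitochondrial acyl carrier protein, fell at 10 µM against 0 µM by 0.56 and 0.40, but another NDUFB4 probe set was higher by 0.63. NDUFB4 lost the call without 0 µM replicate 1 or 2 or 10 µM replicate 1 or 3 (adjusted p up to 0.0935), and NDUFAB1 kept it only without 10 µM replicate 2 (adjusted p up to 0.116 without another array).

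NDUFA1, an X-linked accessory subunit needed for a working complex I, moved up and then down. It read 11.94, 11.92 and 11.57 at 0 µM, 12.20, 12.46 and 12.37 at 5 µM, and 11.38, 11.75 and 11.34 at 10 µM. The 5 µM arrays were above all others, with a rise of 0.53 ± 0.15 at 5 µM against 0 µM (SE, adjusted p = 0.0254) and a fall of 0.85 ± 0.15 at 10 µM against 5 µM (adjusted p = 0.00964). The rise was lost without 0 µM replicate 3 or 5 µM replicate 2 or 3 (adjusted p up to 0.0875), and the fall held without any 1 array. With equal array medians the rise was 0.27 (adjusted p = 0.303) and the fall passed. NDUFA5, of the matrix arm, rose at 5 µM by 0.49 ± 0.15 (SE, adjusted p = 0.0365), a call lost without 0 µM replicate 1 or 3, any single 5 µM array or 10 µM replicate 3 (adjusted p up to 0.102) and with equal array medians (0.22, adjusted p = 0.395). NDUFB9, of the membrane arm, read 12.72, 12.78 and 12.71 at 0 µM, 12.55, 12.70 and 12.69 at 5 µM, and 13.00, 12.96 and 13.04 at 10 µM. It was the only common subunit called higher at 10 µM, by 0.26 ± 0.09 against 0 µM (SE, adjusted p = 0.0442) and 0.36 ± 0.09 against 5 µM (adjusted p = 0.0276), but with equal array medians the first was -0.01 and the second did not pass (adjusted p = 0.107). The call against 0 µM was kept only without 10 µM replicate 2 (adjusted p up to 0.12 without another array), and that against 5 µM was lost without any single 5 µM array or 10 µM replicate 3 (adjusted p up to 0.0916).

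None of the 3 complex II genes passed in any comparison with limma or the methods' t-test. With equal array medians 2 of the 3 were lower at 5 µM and 2 at 10 µM against 0 µM. In that fit the median over all tested genes was itself -0.22 and -0.23. At an unadjusted p under 0.05, 2 were lower at 10 µM against 0 µM, and at 10 µM against 5 µM 1 was higher and 1 lower. SDHA, the flavoprotein, read 10.23, 10.26 and 10.37 at 0 µM, 10.14, 10.00 and 10.13 at 5 µM, and 10.37, 10.28 and 10.36 at 10 µM. The membrane anchors SDHC and SDHD differed by -0.28 (adjusted p = 0.0824) and -0.42 (adjusted p = 0.0957) at 10 µM against 0 µM. Other SDHC probe sets above the floor on all 9 arrays differed there by -0.91 to 0.17. In the same comparison, 1 of the 3 genes was called lower with the mean of the probe sets and 2 without 10 µM replicate 2.

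Of the 8 NDUFAF genes, NDUFAF2, a late-acting assembly factor, changed most. It read 10.56, 10.72 and 10.32 at 0 µM, 9.74, 9.89 and 9.82 at 5 µM, and 9.41, 9.92 and 9.49 at 10 µM. All treated arrays were below all 0 µM arrays, and it fell by 0.93 ± 0.16 at 10 µM (SE, adjusted p = 0.00316) and by 0.72 ± 0.16 at 5 µM (adjusted p = 0.00811), both without any 1 array. NDUFAF1, an early assembly factor, rose at 5 µM by 0.56 ± 0.14 (SE, adjusted p = 0.0135, lost without 0 µM replicate 1 or 5 µM replicate 2 at up to 0.0523 and with equal array medians at 0.226). NDUFAF5, which hydroxylates NDUFS7, fell at 5 µM by 0.40 ± 0.12 (SE, adjusted p = 0.0285, lost without any single 0 µM array or 5 µM replicate 1 or 3 at up to 0.105). NDUFAF4 fell at 10 µM against 0 µM by 0.54, a call kept only without 0 µM replicate 3 or 10 µM replicate 2 (adjusted p up to 0.126 without another array). NDUFAF3 fell at 10 µM against 5 µM by 0.65, a call lost without any single 5 µM array or 10 µM replicate 1 or 3 (adjusted p up to 0.0972) and with equal array medians (0.0671). Among the noncoding RNAs, NDUFB2-AS1 read 5.99, 6.17 and 6.0 at 0 µM, 6.95, 6.63 and 6.98 at 5 µM, and 6.95, 6.41 and 7.14 at 10 µM. It rose by 0.80 ± 0.19 at 5 µM (SE, adjusted p = 0.0119) and by 0.78 ± 0.19 at 10 µM (adjusted p = 0.0143, lost without 10 µM replicate 3 at 0.0503), where NDUFB2 itself did not pass (-0.30 and -0.23). NDUFV2-AS1 rose at 5 µM by 0.79 ± 0.26 (SE, adjusted p = 0.0454), a call lost without 0 µM replicate 2 or 3, any single 5 µM array or 10 µM replicate 1 (adjusted p up to 0.15) and with equal array medians (0.0856).

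Most genes had more than 1 probe set, and 44 of the 88 used end in _s_at or _x_at, which mark probes shared between transcripts or genes. Of the 29 genes lower at 10 µM against 0 µM, 14 had 20 further probe sets above the floor on all 9 arrays, and 16 of the 20 were lower as well. Those that were not belonged to NDUFB4 (0.63), COX5A (0.02), ATP5F1C (0.02) and NDUFAF4 (0.01), and that of NDUFB10 differed by only -0.06. At 5 µM against 0 µM the other NDUFS4 probe set differed by 0.05. Another COX4I1 probe set was higher by 0.82 and 1.14 at 5 and 10 µM against 0 µM, while the one used was lower by 0.25 and 0.23 without passing.

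Other genes of mitochondrial energy metabolism, on lists of pathway members, were read the same way. The background was 13.3% lower and 19.8% higher at 10 µM against 0 µM, and 13.3% and 20.2% at 5 µM against 0 µM. At 10 µM against 5 µM it was 8.92% lower and 6.93% higher. Of 43 further assembly factors, 8 fell and 5 rose at 10 µM against 0 µM, and 11 fell and 4 rose at 5 µM, led by COX19, a copper-handling factor of complex IV (-0.96 ± 0.12 at 5 µM, SE, adjusted p = 0.000476). At 10 µM against 5 µM, 1 of the 43 fell and 6 rose. Of 11 tricarboxylic acid cycle genes, 4 fell at 10 µM and 3 at 5 µM against 0 µM. Among 20 electron carriers and ATP exporters, 5 fell and 2 rose at 10 µM, and ETFB, an electron transfer flavoprotein subunit, was lower at 10 µM by 1.01 ± 0.12 (SE, adjusted p = 0.000599). Of 17 tested genes of mitochondrial biogenesis, 4 fell at 5 µM, among them TFAM, which packages mitochondrial DNA (-0.51 ± 0.14, SE, adjusted p = 0.0218). In the same list 4 rose at 10 µM against 5 µM, led by PPRC1 (0.94 ± 0.13, SE, adjusted p = 0.00478). None of 7 mitochondrially encoded subunits passed in any comparison with limma or the methods' t-test. At an unadjusted p under 0.05 these counts were 2 lower at 5 µM against 0 µM and 0 otherwise. ND2, ND4, COX1, COX2 and ATP6 read between 14.01 and 14.69 on all arrays.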

How the data were processed

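The series table holds 54675 probe sets for 9 arrays, each of a separate HT-29 culture. The submitters' processing notes name RMA and affy 1.14.2, but the authors' deposited log2 values have another form. On the linear scale each array's 2% trimmed mean is 250.0, as MAS 5.0 scaling gives, and no quantile normalization had been applied. Low signals vary widely between arrays. The platform's gene table, with symbols updated through RefSeq (GRCh38.p14), gave 41095 probe sets 1 gene, and 6 probe sets with a missing value were left out. The brightest probe set on average stood for a gene, which was tested when at or above the array median on all 3 arrays of at least 1 dose. All 9 arrays entered 1 fit with a mean per dose (lmFit and eBayes of limma 3.58.1, R 4.3.3), two-sided, with Benjamini-Hochberg adjustment over 11756 genes. Figures used matplotlib 3.10.9.

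Genes are named by a rule: per comparison the 10 largest rises and 10 largest falls with an adjusted p of at most 0.05, the 2 smallest p of a complex with none, the tissue and common forms, and up to 2 called genes per further list. Other members are named where a class count is spelled out, after their values were seen. The members and lists were chosen with earlier results of these data known. On simulated data for 5 µM against 0 µM (11756 genes, 200 changed), limma called 7.46% of genes changed by 0.4, 58.2% by 0.8 and 84.8% by 1.5 on the log2 scale, with 5 false calls among 11556. In the data many more genes were called in this comparison, 2380 higher and 1561 lower. The adjusted p depends on how many genes change, so these rates do not carry over to the data. Alternatives were the scaling, the filter, the choice of probe sets, the test and each array left out. The number of arrays limits the precision.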

Additional observations from a re-analysis of the deposited data

How the results depend on the processing

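Counts here are members at an adjusted p of at most 0.05. Shares over all tested genes are not given for these alternatives, so a larger or smaller count need not be particular to the members. With equal array medians the median over all tested genes moved too, to -0.22 at 5 µM and -0.23 at 10 µM against 0 µM. In the report, 10 were lower and 7 higher at 5 µM against 0 µM, 11 and 1 at 10 µM against 5 µM, and 29 and 3 at 10 µM against 0 µM. In the same order of comparisons, lower and higher counts were 32 and 3, 6 and 0, and 52 and 2 with equal array medians, 7 and 10, 16 and 1, and 19 and 4 with quantile normalization, and 3 and 5, 4 and 0, and 10 and 1 with no filter. They were 10 and 5, 10 and 2, and 33 and 3 with the floor at the 60th percentile, 7 and 6, 5 and 1, and 17 and 3 with the mean of the probe sets, and 5 and 9, 7 and 1, and 15 and 6 without _x_at and _s_at probe sets. Fits of 2 groups alone gave 24 and 8, 9 and 0, and 18 and 2, the methods' t-test 17 and 4, 3 and 0, and 7 and 1, and eBayes with trend and robust 19 and 7, 16 and 2, and 38 and 4. Array weights gave 25 and 8, 45 and 5, and 60 and 6, low signals raised to the floor 10 and 8, 12 and 2, and 32 and 3, and the actin covariate 0 and 2, 0 and 0, and 0 and 0. Without 10 µM replicates 2 and 3, chosen after seeing the data for their 18S 5' signal, the counts were 23 and 7, 11 and 1, and 42 and 3. The lone 10 µM array is then assumed to vary like the arrays of the other doses.

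Of the 29 genes, 29 remained lower with equal array medians, 18 with quantile normalization, 14 without _x_at and _s_at probe sets and 6 with the methods' t-test. With 1 array left out, lower counts were 3 to 21, 4 to 25 and 11 to 54, and higher counts 3 to 8, 0 to 2 and 1 to 4. The medians were -0.16 to -0.10, -0.28 to -0.09 and -0.39 to -0.22. The medians moved by more than the spread between replicates (SD of the per-array median, 0.12) with equal array medians (-0.41 at 5 µM and -0.58 at 10 µM against 0 µM) and without 10 µM replicates 2 and 3 (-0.30 at 10 µM against 5 µM). With quantile normalization they were -0.02 at 5 µM and -0.21 at 10 µM against 0 µM, outside the ranges with 1 array left out.

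Past 2-fold, 2 members were higher at 5 µM against 0 µM, and 1 with the higher floor or low signals raised. At 10 µM against 5 µM, 1 was lower, 2 with no filter, 2 groups alone or the methods' t-test, 4 with array weights and 0 with the higher floor or the actin covariate, and 1 to 2 with 1 array left out. With low signals raised the count was also 1, but this was not COX7A1, whose fall was then 1.62-fold. At 10 µM against 0 µM, 1 was higher, 2 without _x_at and _s_at probe sets, 3 with array weights and 0 with the methods' t-test, low signals raised or the actin covariate. There 0 were lower, 7 with equal array medians, 2 with array weights or without 10 µM replicates 2 and 3, and 0 to 2 with 1 array left out.

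Directions turned for differences near 0 or with other probe sets. At 5 µM against 0 µM, values became 0.10 for ATP5F1C and 0.82 for COX4I1 without _x_at and _s_at probe sets, 0.10 for SDHD and -0.07 for COX7B with the mean of the probe sets, 0.03, 0.15 and 0.15 for COX6A1, COX6B1 and COX8A with quantile normalization, -0.15 and -0.18 for COX7A2 and COX7B with equal array medians, and 0.03 for COX6B1 with the actin covariate (with 1 array left out it lay between -0.04 and 0.04, above 0 without 0 µM replicate 1 or 2 or 5 µM replicate 1, at 0.01, 0.03 and 0.04). At 10 µM against 5 µM, they became 0.14, 0.08 and 0.42 for UQCRB, NDUFB1 and SDHC without _x_at and _s_at probe sets, -0.05, 0.53 and 0.02 for COX4I1, COX6A1 and COX7B with the mean of the probe sets, 0.30 for COX6B2 with the actin covariate, and -0.05 for COX4I1 with array weights (-0.07 without 10 µM replicates 2 and 3, -0.01 and -0.06 without 5 µM replicate 1 or 10 µM replicate 2). At 10 µM against 0 µM, they became 1.14 and 0.17 for COX4I1 and SDHC without _x_at and _s_at probe sets, 0.39 and 0.01 for COX6A1 and SDHD with the mean of the probe sets, 0.02 and 0.03 for COX6B1 and COX7B with quantile normalization, -0.01 for NDUFB9 with equal array medians, 0.11 for UQCRC1 with the actin covariate and -0.03 for COX7A1 without 0 µM replicate 3 (up to 0.91 with another array left out). The cause was not tested. These are 33 values. The other values of named genes kept their direction, 1227 with the same call, 231 without the call and 72 with a call gained.

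The replicate numbers gave no pairing, since same-numbered arrays correlated between -0.089 and 0.179 in their deviations. With the replicate block, 14 members were lower and 7 higher at 5 µM against 0 µM, 12 and 0 at 10 µM against 5 µM, and 29 and 2 at 10 µM against 0 µM. Values below the floor carry little information, so the changes of COX6B2 and COX7A1 at 5 µM against 0 µM are known only as bounds.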

Other observations

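COXFA4L3 (C15orf48), a further relative of the complex IV subunit COXFA4, is no member by the rule and was chosen after its values were seen. It read 4.0, 4.45 and 4.49 at 0 µM, 8.27, 8.02 and 8.21 at 5 µM, and 6.14, 6.71 and 5.88 at 10 µM. All 0 µM values were below the floor, and all treated values above it, so the gene passed the filter on low signals only through treated arrays and had to differ. The gene was at least 8.1-fold higher at 5 µM than at 0 µM (limma adjusted p = 1.02e-05) and at least 2.15-fold higher at 10 µM than at 0 µM (adjusted p = 0.000556). At 10 µM it fell by 1.92 ± 0.22 on the log2 scale against 5 µM (SE, adjusted p = 0.00254). Among the genes of complex IV and its relatives, COXFA4L3, COX4I2, COX6B2, COX7A1, COX7B2 and COX8C had their highest signals on the 5 µM arrays, without overlap with the other doses. They were picked out for this pattern, and the doses of COX6A2 and COXFA4L2 overlapped. All values of COX7B2 and COX8C were below the floor, and COX6B2 and COX7A1 passed the filter only through treated arrays. Over all tested genes, 31% were higher without overlap at 5 µM against 0 µM and 18.6% were lower without overlap at 10 µM against 5 µM. The share of genes that met both was not counted, so the pattern has no background here.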
